A study of Mus musculus with 6 samples.

Results

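Treg cells were followed here as the *Foxp3*+ T cells of CT26 tumors. A cell counted as one when the deposited annotation labelled it T cell EFF, T cell MEM or NKT and it held 1 or more unique molecular identifiers (UMIs) of *Foxp3* and 1 or more of the CD3 chain genes *Cd3d*, *Cd3e* or *Cd3g*. This rule found 750 of the 33961 cells in the table. Of these, 279 were labelled T cell EFF, 194 T cell MEM and 277 NKT. The annotation has no label of its own for Treg cells. *Foxp3* and the CD3 chains chose the cells, so their levels are given only as a description, and no test was run on any value.

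Treg cells are T cells, mostly of the CD4 lineage, that restrain other immune cells. They are defined by the transcription factor Foxp3 and carry the high-affinity interleukin-2 (IL-2) receptor chain CD25, the product of *Il2ra*, with which they take up IL-2. The checkpoint receptor CTLA-4 lets them strip costimulatory ligands from antigen-presenting cells, and Helios, encoded by *Ikzf2*, helps to keep them stable. In tumors Treg cells often carry much GITR (*Tnfrsf18*) and OX40 (*Tnfrsf4*), costimulatory receptors of the tumor necrosis factor (TNF) receptor family. GITR and PD-1 (*Pdcd1*) are the targets of the bispecific of this study.

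CT26 is a colon carcinoma line, grown here under the skin of wild-type female Balb/c mice, obtained at 5 to 6 weeks of age. According to the sample labels, 6 tumors formed 3 groups of 2, treated with vehicle, a low dose or a high dose of a PD-1 GITR-L bispecific antibody, and the tumors were taken 5 days after treatment. One field of the labels gives the low dose as 10 mg per kg and another as 30, the same as the high dose. CD45+ cells were enriched with beads and sequenced by droplet-based single-cell mRNA-seq. The cells of the table carry 4 library names, M1, M2, M5 and M6, which match no sample of the labels, so no comparison between treatments was made and each library is given on its own.

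The libraries held 7160 to 10294 cells, with a median of 11399 to 21800.5 UMIs per cell. Libraries M1, M2, M5 and M6 gave 50, 61, 334 and 305 *Foxp3*+ cells. Of them, 3 had a barcode that also occurred in another library. The median *Foxp3*+ cell held 7117.5 UMIs, from 1490 to 143758. Depth differed by label, with a median of 16329 UMIs in *Foxp3*+ cells labelled T cell EFF, 7365 in T cell MEM and 5165 in NKT. The *Foxp3*- cells of the same labels that held a CD3 chain UMI had medians of 9880, 6193 and 4018. Over 20000 UMIs were found in 41.6% of *Foxp3*+ and 16.5% of *Foxp3*- cells labelled T cell EFF, in 20.6% and 3.99% of T cell MEM, and in 2.17% and 1.46% of NKT.

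*Foxp3* (chromosome X of GRCm38, 7573644 to 7595245, GENCODE annotation) was counted at 1 UMI in 224 of the 750 cells, at 2 in 139 and at 3 or more in 387, with 15 as the highest count. The cells nearest to the rule on the outside were 6 cells of the same labels that held *Foxp3* but no CD3 chain UMI. They were shallow, with a median of 1679.5 UMIs and at most 2 *Foxp3* UMIs. Other labels held 586 more cells with *Foxp3* and CD3 chain UMIs, among them 239 labelled ILC, 154 Myeloid and 110 T cells. These are outside the rule and were not analysed here.

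To compare shares of cells at one depth, every cell was thinned at random to 2000 UMIs, which excluded 163 shallower cells. Among CD3+ cells of the 3 labels, 7.05% then held a *Foxp3* UMI (379 of 5379, 95% exact binomial interval 6.38 to 7.76), against 13.5% without thinning. All intervals here cover counting error only. By label, the thinned share was 2.97% in T cell EFF, 8.69% in T cell MEM and 24.8% in NKT, at median depths of 10084.5, 6297 and 4355 UMIs. The order was thus the reverse of the depth. Among all cells of the other labels, NK cells, which should lack *Foxp3*, were at 0.190% with a median of 5397 UMIs, and B cells at 0 of 112, which allows up to 3.24%.

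**Figure D1:**
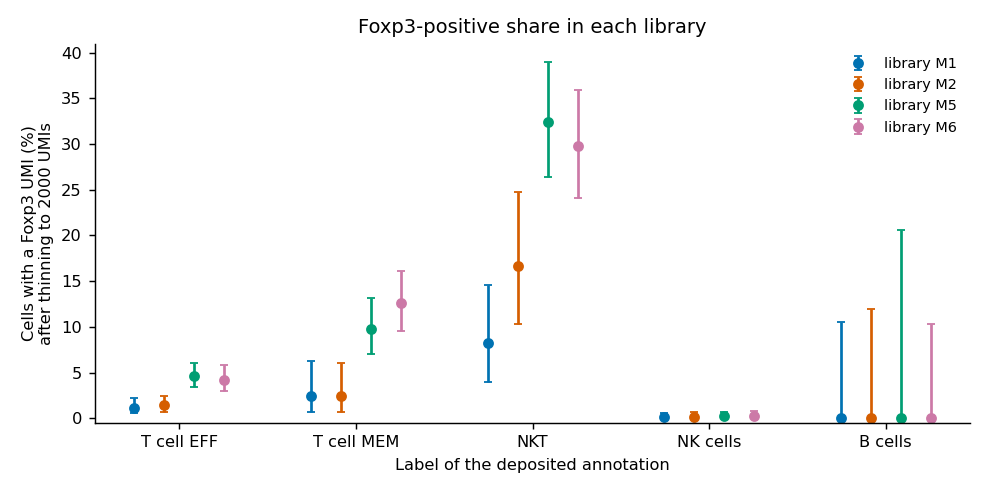
Share of cells with a *Foxp3* UMI after thinning to 2000 UMIs (y axis, percent), by label of the deposited annotation (x axis). For the 3 T cell labels only CD3+ cells are counted, and for NK cells and B cells all cells of the label. Points are the 4 libraries and bars are 95% exact binomial intervals for counting error. In every library the share is highest in NKT, from 8.20% in M1 to 32.4% in M5, and lowest of the 3 T cell labels in T cell EFF, from 1.14% to 4.58%.

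The NKT label had the highest share in each library. Its shares were 8.20%, 16.7%, 32.4% and 29.8% for M1, M2, M5 and M6. In T cell MEM the shares were 2.48%, 2.41%, 9.74% and 12.6% in the same order, and in T cell EFF 1.14%, 1.41%, 4.58% and 4.22%. Over the 3 labels together the share was lowest in M1, at 2.15% (1.37 to 3.21), and highest in M6, at 10.9% (9.32 to 12.6), with 3.10% in M2 and 9.43% in M5. The NKT label made up 33.8% to 50.8% of the *Foxp3*+ cells of a library.

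*Cd4* and the CD8 chain genes *Cd8a* and *Cd8b1*, which mark the helper and the cytotoxic lineage, split the *Foxp3*+ cells into 4 classes. *Cd4* without a CD8 chain was found in 296 cells (39.5%, interval 35.9 to 43.1), a CD8 chain without *Cd4* in 96 (12.8%), both in 166 (22.1%) and neither in 192 (25.6%). In NKT, 58.1% of the *Foxp3*+ cells were of the *Cd4* class and 5.78% held both lineages. In T cell EFF, the *Cd4* class and the CD8 class had 24.7% each and 36.6% held both. Cells with both were the deepest, with a median of 22710.5 UMIs, followed by 16021 in the CD8 class, 6208 in the *Cd4* class and 4668 in cells with neither. A total of 59.0% of the cells with both held more than 20000 UMIs, and in 11.4% of them macrophage and monocyte genes made up more than 0.5% of the UMIs, against 2.03% in the *Cd4* class. Whether droplets held more than 1 cell was not tested.

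**Figure D2:**
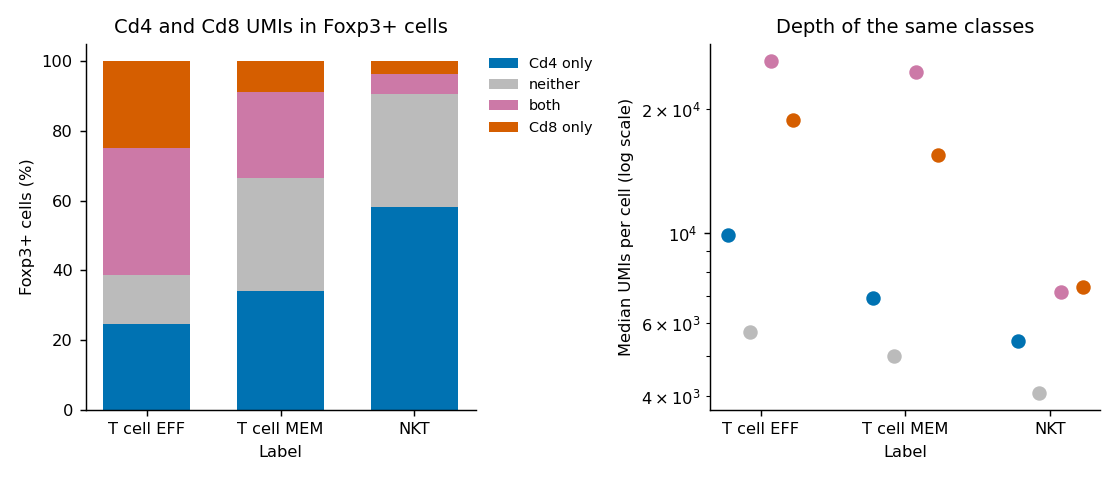
Left, *Foxp3*+ cells of each label by the UMIs they hold (y axis, percent of cells): *Cd4* only, neither, both *Cd4* and a CD8 chain, or a CD8 chain only. Right, median UMIs per cell of the same classes (y axis, log scale). *Cd4* only is the largest class in NKT at 58.1%, while cells with both lineages are the largest class in T cell EFF at 36.6% and have the highest median there, 26323 UMIs.

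The *Foxp3*+ cells carried the Treg markers that the rule did not use. After thinning, *Ikzf2* (chromosome 1, 69531214 to 69687245) was detected in 84.7% of them (81.9 to 87.2), against 34.9% of *Foxp3*- CD4 cells and 34.6% of *Foxp3*- CD8 cells of the same labels. *Foxp3*- CD4 cells are the 331 cells with a CD3 chain UMI, a *Cd4* UMI and no CD8 chain UMI, and *Foxp3*- CD8 cells the 3819 with a CD8 chain UMI and no *Cd4* UMI. *Ctla4* (chromosome 1, 60887000 to 60915832) was detected in 75.4% of *Foxp3*+ cells, 45.6% of *Foxp3*- CD4 cells and 43.6% of *Foxp3*- CD8 cells. For *Il2ra* (chromosome 2, 11642807 to 11693193) the shares were 37.3%, 13.5% and 12.6%. *Tnfrsf4* (chromosome 4, 156013843 to 156016612) lay closer between the CD4 sets, at 73.2%, 61.9% and 38.7%. The intervals of the *Foxp3*+ cells lay above those of both *Foxp3*- sets for all 4 genes.

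Taken per cell, 649 of 739 *Foxp3*+ cells (87.8%, 85.2 to 90.1) held at least 2 of the 4 markers *Il2ra*, *Ctla4*, *Ikzf2* and *Tnfrsf4* after thinning, and 22 (2.98%) held none. In *Foxp3*- CD4 cells 49.1% held at least 2, and in *Foxp3*- CD8 cells 39.7%. The share was 96.7% in *Foxp3*+ cells labelled NKT, 88.1% in T cell MEM and 79.0% in T cell EFF, and 68.4% in the CD8 class. Over the libraries it ran from 85.5% in M5 to 90.4% in M6. Single markers varied more, such as *Il2ra* with 46.8%, 50.8%, 32.4% and 38.5% in M1, M2, M5 and M6, and *Ctla4* with 83.0%, 62.3%, 74.5% and 77.7%. *Foxp3* itself was kept by only 51.3% of the *Foxp3*+ cells after thinning. The *Foxp3*- sets may therefore hold Treg cells whose *Foxp3* transcripts were not captured.

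Detection of the markers differed between the lineage classes. *Ikzf2* was found in 91.8% of the *Cd4* class and 94.7% of cells with neither, but in 75.3% of cells with both and 60.0% of the CD8 class. *Tnfrsf4* ran from 84.2% in the *Cd4* class to 53.7% in the CD8 class, and *Il2ra* was at 41.9% and 25.3% in these classes.

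**Figure D3:**
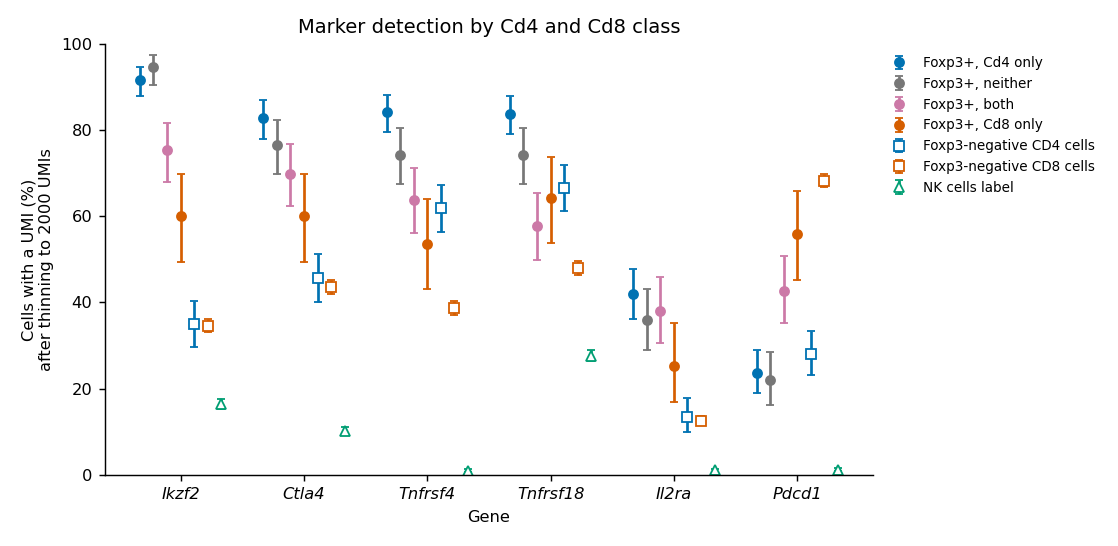
Cells with a UMI of each gene after thinning to 2000 UMIs (y axis, percent), for the 4 classes of *Foxp3*+ cells (filled circles), *Foxp3*- CD4 and CD8 cells of the same labels (open squares) and cells labelled NK cells (open triangles). Bars are 95% exact binomial intervals. *Ikzf2* is at 91.8% and 94.7% in the *Cd4* class and in cells with neither lineage, against 34.9% in *Foxp3*- CD4 cells, whereas *Pdcd1* is highest in *Foxp3*- CD8 cells at 68.3%.

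Of the genes listed for NKT cells, *Zbtb16* and *Klrb1c* are given here, and both were rarely detected in the *Foxp3*+ cells labelled NKT. *Trav11*, *Traj18* and *Il2rb* are on the same list and their shares are not given, so the list as a whole is not described. *Zbtb16*, which encodes PLZF, the transcription factor of NKT cells, was found in 0 of 269 of them after thinning, which allows a share of cells with a UMI of up to 1.36% at this depth, against 9.84% of the *Foxp3*- cells of this label. Without thinning the shares were 1.81% and 14.8%. This limits cells with a UMI, not cells that express the gene. *Klrb1c*, which encodes NK1.1, was detected in 2.60% of the *Foxp3*+ cells of this label. No share in *Foxp3*- cells is set beside it, so this value is a description alone. Pooled over libraries, the Treg markers were most frequent under this label, with *Ikzf2* in 95.2%, *Ctla4* in 84.0%, *Tnfrsf18* in 82.5% and *Tnfrsf4* in 81.0% of its *Foxp3*+ cells. This order held for these genes and *Il2ra* in M6, but not in every library. In M1, *Tnfrsf4* was at 70.6% in NKT and 83.3% in T cell EFF. *Il2ra* was at 41.2% and 45.8% in these labels in M1, and at 51.6% and 57.1% in M2. The *Foxp3*+ cells of this label are named by the label alone here.

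Both targets of the bispecific were detected, GITR more often than PD-1. *Tnfrsf18* (chromosome 4, 156026164 to 156028895) was found in 73.1% of *Foxp3*+ cells after thinning (69.7 to 76.2), 66.7% of *Foxp3*- CD4 cells, 48.0% of *Foxp3*- CD8 cells and 27.7% of NK cells. Its shares in *Foxp3*+ cells of M1, M2, M5 and M6 were 78.7%, 82.0%, 67.6% and 76.4%. *Pdcd1* (chromosome 1, 94038305 to 94052553) was found in 31.7% of *Foxp3*+ cells (28.3 to 35.1), 28.0% of *Foxp3*- CD4 cells, 68.3% of *Foxp3*- CD8 cells and 1.19% of NK cells. Its shares in *Foxp3*+ cells were 38.3%, 36.1%, 32.7% and 28.6% in M1, M2, M5 and M6. In *Foxp3*- CD4 cells of these libraries *Pdcd1* was at 15.9%, 22.9%, 25.7% and 34.8%, below the *Foxp3*+ cells in M1, M2 and M5 and above them in M6. The pooled shares of both genes had overlapping intervals in *Foxp3*+ and *Foxp3*- CD4 cells, and the *Foxp3*+ cells differed from *Foxp3*- CD8 cells in opposite directions.

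Within the *Foxp3*+ cells, pooled over libraries, the targets ran in opposite directions over the labels. *Tnfrsf18* was detected in 64.5% of T cell EFF, 72.2% of T cell MEM and 82.5% of NKT, while *Pdcd1* was detected in 41.3%, 33.0% and 20.8%. In each library NKT had the lowest share for *Pdcd1* and a higher share than T cell EFF for *Tnfrsf18*. T cell EFF and T cell MEM did not keep one order, since *Pdcd1* was at 47.6% and 55.6% in them in M2, and *Tnfrsf18* at 71.4% and 66.7%. *Pdcd1* was found in 55.8% of the CD8 class and 23.7% of the *Cd4* class. Transcripts of both genes in one cell were seen in 21.8% of *Foxp3*+ cells after thinning (18.9 to 24.9) and in 52.7% without it. In *Foxp3*- CD4 cells the thinned share was 19.2%, in *Foxp3*- CD8 cells 35.2%, and in the *Cd4* class and the CD8 class of *Foxp3*+ cells 19.6% and 35.8%. *Tnfsf18*, which encodes the GITR ligand, had no UMI in any *Foxp3*+ cell.

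To compare expression levels, UMIs of a set were added up per gene and scaled to the same total in every set (CPM), and log2 ratios were taken after adding 1 CPM. A gene is called higher or lower here when its pooled CPM differed by 2-fold or more and the sign was the same in each library, among genes with a mean of 20 CPM or more over both sets. A gene that is low in one set can pass this minimum only through the set where it is high, so counts of called genes are a description. Against *Foxp3*- CD4 cells, 145 of 5664 genes were higher in all 750 *Foxp3*+ cells (2.56%) and 47 were lower (0.83%). Counts on the list for Treg identity are given here and below without *Foxp3*, which chose the cells. Of its 13 genes tested, 5 were higher, namely *Entpd1*, *Ikzf2*, *Il2ra*, *Itgae* and *Lrrc32*. Among the 5, *Lrrc32* passed the minimum only through the *Foxp3*+ cells. The median log2 ratio of this list was 0.80, against 0.05 over all genes tested. Other genes far apart were cytotoxic, such as *Prf1*, which encodes perforin, with 391 CPM against 52.9, or of myeloid cells, such as *Ms4a6d*. *Cd8a* and *Cd8b1* were higher and *Cd4* lower by construction of the CD4 set.

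Sums weight deep cells, and of the 162 *Foxp3*+ cells over 20000 UMIs 136 held a CD8 chain UMI and 28 had more than 0.5% of their UMIs from macrophage and monocyte genes. The macrophage and monocyte list summed to 2335 CPM in *Foxp3*+ cells, from 1160.3 in M2 to 3046 in M5, against 679 CPM in *Foxp3*- CD4 cells, from 509 to 1153. *Lyz2* and *Cd14* were the 2 of its 10 genes called higher. *Prf1*, *Gzmb* and 6 further genes of the 16 on the cytotoxic list were called higher in the same comparison, and so were 13 of 17 proliferation genes. Without cells over 20000 UMIs, 91 genes were higher and 46 lower. The part of mixed transcripts in these calls was not tested. The 296 *Foxp3*+ cells with *Cd4* and no CD8 chain, called *Foxp3*+ CD4 cells below, had a macrophage sum of 948 CPM, from 359.98 in M2 to 1439 in M5, and none of its 9 genes tested was called. The account of single genes rests on them. Libraries M1, M2, M5 and M6 held 14, 23, 128 and 131 of these cells. In M1 a single cell held 81790 of their 165308 UMIs, so M1 levels of *Foxp3*+ CD4 cells rest largely on that cell.

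Against *Foxp3*- CD4 cells, 104 of 5624 genes were higher in *Foxp3*+ CD4 cells (1.85%) and 76 were lower (1.35%). Treg identity genes were prominent among the former, with 7 of 13 tested higher and none lower, a median log2 ratio of 1.14 against 0.08 over all genes, and a summed level of 6498 against 3143 CPM. Among the 7, *Lrrc32* passed the minimum only through the *Foxp3*+ CD4 cells. *Ikzf2* had 949.7, 1789.9, 1724 and 1422 CPM in M1, M2, M5 and M6 in *Foxp3*+ CD4 cells, against 309, 379, 564 and 415 in *Foxp3*- CD4 cells. The libraries did not overlap between the sets, and the pooled level was 3.41-fold higher (counting interval 3.17 to 3.68). *Il2ra* had 236, 815, 399 and 360.4 CPM against 148, 143, 129 and 131.5, a pooled log2 ratio of 1.58. *Ctla4* had 1143, 1499.9, 971.5 and 1158 against 582, 820.2, 518 and 415, 2.20-fold higher (2.05 to 2.37). For both genes too, each library of *Foxp3*+ CD4 cells lay above each library of *Foxp3*- CD4 cells.

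Further identity genes followed. *Ikzf4*, which encodes Eos, a partner of Foxp3, had a log2 ratio of 1.53, and *Izumo1r*, which encodes folate receptor 4, a surface marker of Treg cells, one of 1.54. *Entpd1*, the ATP-degrading ectoenzyme CD39, was 0.92 and was not called in these cells, and *Nt5e*, the enzyme CD73 that acts after it, was 0.11. *Nrp1*, the receptor neuropilin-1 that often marks thymus-derived Treg cells, was lower in each library with a log2 ratio of -0.71 and was not called. *Tnfrsf4* had 1222, 2105, 1301 and 1125 CPM in M1, M2, M5 and M6 against 587, 1313, 851 and 706. It was higher within each library, by a pooled 1.60-fold (1.504 to 1.698), which is below the 2-fold limit.

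Of 14 genes tested on a list for transforming growth factor beta (TGF-beta), 4 were called higher in *Foxp3*+ CD4 cells and none lower, with a median log2 ratio of -0.11 over the list. *Lrrc32* encodes GARP, which holds latent TGF-beta on the Treg surface, and its pooled level was 55.5 CPM against 13.0, with 72.6, 90.0, 48.5 and 53.4 in M1, M2, M5 and M6 against 13.4, 28.7, 15.6 and 7.87. *Itgb8*, whose product pairs with that of *Itgav* in the integrin that releases the factor, had 66.5, 129.99, 58.6 and 70.4 CPM against 4.48, 51.6, 15.6 and 15.7. *Itgav* itself had a log2 ratio of 1.08. *Itgae*, which encodes CD103, an integrin chain induced by TGF-beta that binds epithelial cadherin, had 72.6, 199.99, 165 and 158 CPM against 40.3, 34.4, 42.1 and 46.1. These 4 genes were also called without cells over 20000 UMIs, where 13 were tested. Among them, *Lrrc32* and *Itgb8* were below 20 CPM in pooled *Foxp3*- CD4 cells. They passed the minimum only through the *Foxp3*+ CD4 cells.

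Of the TNF receptor family, *Tnfrsf9* and *Cd27* were called higher among 7 genes tested. *Tnfrsf9* encodes 4-1BB, a costimulatory receptor of activated T cells, and had 1209.9, 1489.9, 1924 and 1657 CPM in M1, M2, M5 and M6 against 689.9, 574, 826 and 716. Each library of *Foxp3*+ CD4 cells was above each of *Foxp3*- CD4 cells. *Cd27*, a costimulatory receptor bound by CD70, had a log2 ratio of 1.11. GITR itself differed less. *Tnfrsf18* had 847, 1195, 1128 and 913 CPM against 609, 889, 647 and 659, a log2 ratio of 0.59, higher within each library but below the limit, and M1 overlapped with M2 of the other set. *Pdcd1* had 54.4, 109.99, 173 and 174 CPM against 224, 247, 301 and 307. PD-1 transcripts were lower in each library, by a log2 ratio of -0.84, and were not called.

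Of 21 genes on the list for tumor and effector Treg cells, 4 were higher and none lower. These were *Itgb8*, *Tnfrsf9*, *Klrg1*, an inhibitory receptor of differentiated Treg and cytotoxic cells with 129.5 CPM against 42.0, and *Prdm1*, which encodes the effector regulator Blimp-1, with 37.4 against 15.6. *Itgb8* and *Prdm1* passed the minimum of 20 CPM only through the *Foxp3*+ CD4 cells. *Icos*, a costimulatory receptor, was high in both sets with 1095 and 915 CPM. The suppressive cytokine gene *Il10* had 21.5 CPM against 11.4 and was higher in only 2 of 4 libraries, and *Ebi3*, a subunit of interleukin-35, had 27.6 against 14.5. *Ccr8* and *Tigit*, receptors often used to mark tumor Treg cells, had 33 and 18 UMIs over the 296 cells. After thinning they were detected in 2.30% and 2.03% of all *Foxp3*+ cells, too few for a comparison at this depth.

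Among genes of resting T cells, *Tcf7*, which encodes the factor TCF-1 of stem-like T cells, had 30.2, 0, 25.3 and 13.9 CPM in M1, M2, M5 and M6 of *Foxp3*+ CD4 cells, against 193, 120.4, 76.4 and 96.7. The survival gene *Bcl2* had 48.7 CPM against 181 when pooled. Both were called lower. *Il7r*, the IL-7 receptor chain, had 432 and 431 CPM. In the setting without cells over 20000 UMIs, *Bach2*, a repressor of effector genes, was called lower.

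Of 11 cytokine genes tested, 4 were lower in *Foxp3*+ CD4 cells, *Ccl1*, *Ifng*, *Tnfsf11* and *Tnfsf8*, and 1 was higher, with a median log2 ratio of -0.94 against 0.08 over all genes tested. *Tnfsf8*, which encodes the CD30 ligand, had 0, 0, 13.1 and 31.7 CPM in M1, M2, M5 and M6 of *Foxp3*+ CD4 cells, against 354, 493, 318 and 355 in *Foxp3*- CD4 cells. *Tnfsf11*, which encodes RANKL, had 24.2, 14.999, 28.3 and 45.6 CPM against 184, 493, 304 and 411. The pooled folds were 0.0574 (0.0427 to 0.0758) and 0.0995 (0.0793 to 0.124), and neither gene overlapped between the sets. The log2 ratio of *Tnfsf8* went from -4.06 to -5.07 without M6. *Ccl1*, a chemokine and ligand of CCR8, had 6 UMIs against 275, but M1 stood apart among *Foxp3*- CD4 cells with 909 CPM, where the others had 11.5 to 68.6. Its log2 ratio was -5.46 with all libraries, -3.66 without M1 and -7.11 without M6. *Ifng* had 35.5 CPM against 87.1. *Csf2*, which encodes the growth factor GM-CSF, had a pooled log2 ratio of -2.67 and was not called, since M1 had 90.7 CPM against 80.6. With each library left out in turn, the ratio of *Csf2* ran from -3.22 to -1.47. Without cells over 20000 UMIs, *Csf2* was called lower and *Ifng* was not called.

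*Xcl1*, a chemokine of cytotoxic cells, was the cytokine gene called higher, with 357, 29.998, 29.3 and 16.2 CPM in M1, M2, M5 and M6 against 67.2, 0, 12.5 and 2.25. Its log2 ratio went from 1.67 to -0.69 without cells over 20000 UMIs. *Cd40lg*, which encodes the CD40 ligand of helper T cells, had 6 UMIs in the *Foxp3*+ CD4 cells and 71 in the *Foxp3*- CD4 cells, and its mean level was too low for a call. *Il2* had 7 UMIs against 17, and *Il4* 1 against 11 (ratio 0.0662, counting interval 0.00154 to 0.455).

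**Figure D4:**
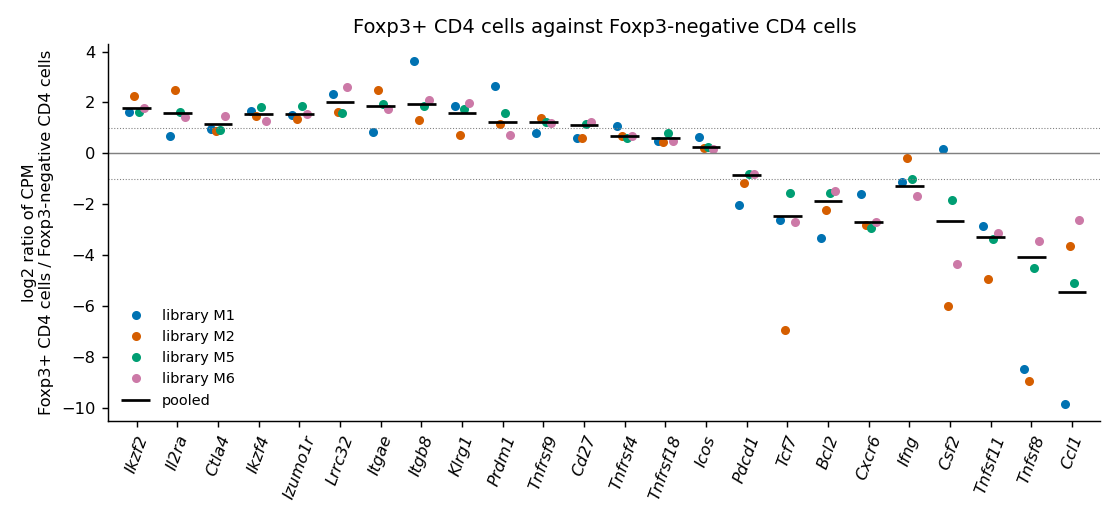
Log2 ratio of CPM between *Foxp3*+ CD4 cells and *Foxp3*- CD4 cells (y axis) for named genes (x axis), pooled (black line) and in each of the 4 libraries (points). The dotted lines mark the 2-fold limit, and a pseudocount of 1 CPM sets the lowest points, where a library had no UMI. *Ikzf2* is above 0 in each library with a pooled ratio of 1.77, *Tnfrsf18* at 0.59 and *Pdcd1* at -0.84 stay inside the 2-fold lines when pooled, and *Tnfsf8* and *Ccl1* are the lowest at -4.06 and -5.46.

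Among chemokine receptors, *Cxcr6*, the receptor for CXCL16, was called lower. *Cxcr6* had 103, 74.996, 63.6 and 84.3 CPM in M1, M2, M5 and M6 of *Foxp3*+ CD4 cells against 309, 539, 494 and 545. The sets did not overlap, and the pooled fold was 0.154 (0.132 to 0.179). *Ccr2*, a receptor for monocyte chemokines, missed the limit at 1.996-fold, with 520.2 to 569.97 CPM over the libraries against 244 to 309. It was called higher without cells over 20000 UMIs. *Cxcr3*, the receptor for interferon-induced chemokines, had 164 CPM against 127, and *Ccr4* 27.2 against 20.7.

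Cytotoxic genes were lower or not called in *Foxp3*+ CD4 cells. This set differs from all *Foxp3*+ cells in depth as well as lineage, with 23 cells over 20000 UMIs against 162. Which of these moved the calls was not tested. Of 15 tested, 6 were lower in *Foxp3*+ CD4 cells, namely *Ctsw*, *Fasl*, *Gzmk*, *Klrc1*, *Klrd1* and *Klrk1*, and none was higher. The last 3 encode receptors of the natural killer (NK) cell family. *Gzmb*, which encodes granzyme B, was an exception in level, with 1131, 1185, 742 and 863 CPM in M1, M2, M5 and M6 against 1626, 574, 433.5 and 429. It was higher in 3 of 4 libraries with a pooled log2 ratio of 0.56. Among lineage factors, *Gata3* had 200.1 CPM against 251 and *Tbx21*, which encodes T-bet, 19.3 against 30.1, and neither was called. *Tcf7* was the only one of 8 lineage factors called. Of 7 inhibitory receptor genes *Ctla4* was called higher and *Cd96* lower, and of 13 genes of IL-2 and STAT5 signaling *Il2ra* was called higher and *Bcl2* lower.

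Of 17 proliferation genes tested, 9 were called higher in *Foxp3*+ CD4 cells, among them *Mki67* with 206, 295, 63.6 and 155 CPM in M1, M2, M5 and M6 against 98.6, 68.8, 39.0 and 34.9, and *Top2a* with 171 against 59.6 pooled. The sets also differed in labels, with 66 of 296 *Foxp3*+ CD4 cells and 137 of 331 *Foxp3*- CD4 cells labelled T cell MEM. The part of the labels in these proliferation calls was not tested. When cells over 20000 UMIs were left out, which took away 23 of 296 *Foxp3*+ CD4 cells and 1 of 331 *Foxp3*- CD4 cells, *Birc5* alone of 15 was called. *Mki67* then had a log2 ratio of 1.00, after 1.51 with all cells, and was lower in M5, and *Top2a* had 0.92 after 1.51. Whether depth or the content of these cells moved the calls was not tested. In that setting 97 genes were higher (1.75%) and 83 lower (1.49%) of 5554, and 7 of 13 Treg identity genes were higher. Among the 7, *Lrrc32* passed the minimum of 20 CPM only through the *Foxp3*+ CD4 cells. *Ly6a* and *Iigp1* were called higher and *Ly6c2* lower of 15 interferon-stimulated genes. None of 9 NF-kB genes, 12 genes of glycolysis and hypoxia, 12 genes induced by the T cell receptor or 8 T cell receptor and CD3 genes was called in either direction in all *Foxp3*+ CD4 cells. Without the deep cells *Fosb*, of the T cell receptor-induced list, was called lower.

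Beyond the lists, the genes highest against *Foxp3*- CD4 cells included *Spc24*, of the kinetochore, and *Hist1h2ap*, a histone. *Neb*, which encodes the muscle protein nebulin, had 60.5, 199.99, 89.9 and 69.6 CPM in M1, M2, M5 and M6 against 44.8, 45.9, 6.24 and 13.5. *Trf*, which encodes transferrin, had 96.8, 155, 86.9 and 76.6 against 17.9, 5.74, 34.3 and 14.6. The sets did not overlap for either gene. The lowest included *Tbc1d4*, a regulator of glucose transporter traffic, with 18.9 CPM against 153, and the interferon-induced membrane protein genes *Ifitm1* and *Ifitm2* with log2 ratios of -3.38 and -2.29.

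The labels were then taken one at a time, each against its own *Foxp3*- CD3+ cells. After thinning, *Cd8a* was detected in 70.9% of the latter in T cell EFF, 50.2% in T cell MEM and 11.2% in NKT, so lineage differed along with *Foxp3*. In NKT, 164 of 5626 genes were higher (2.92%) and 137 lower (2.44%), and 9 of 13 Treg identity genes were higher. Among the 9, *Lrrc32* passed the minimum of 20 CPM only through the *Foxp3*+ set. *Ctla4* had 1823, 1540.4, 1171 and 1488 CPM in M1, M2, M5 and M6 in *Foxp3*+ cells labelled NKT, against 405, 506, 443 and 415. *Tnfrsf18* had 1479, 1241, 1162 and 1041 CPM against 396, 438, 569 and 469. *Tnfrsf4* was 3.26-fold higher (3.02 to 3.51). Each of these genes was above the *Foxp3*- range in all 4 libraries. None of them was called between *Foxp3*+ and *Foxp3*- CD4 cells of the NKT label, where *Ctla4* had 1378 against 739 CPM (log2 ratio 0.90) and was lower in M2, *Tnfrsf4* 1415 against 831 (0.77) and *Tnfrsf18* 1213 against 691 (0.81). *Itgb8* with a log2 ratio of 3.23, *Klrg1* with 2.53 and *Itgae* with 2.48 were among the highest. *Il10* was called higher here, together with 9 more of 21 genes on the list for tumor and effector Treg cells. Between the CD4 cells of this label 4 of 20 genes of that list were called higher, and *Il10*, with 24.5 against 21.2 CPM, was not among them.

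Among the lowest genes in *Foxp3*+ cells labelled NKT were those of NK cell receptors and NKT cells. *Klra1* and *Klra5* encode receptors of the Ly49 family. *Klra1* had 1 UMI, a fold of 0.00901 (counting interval 0.000227 to 0.0510), and *Klra5* had a log2 ratio of -4.40. *Zbtb16* had 0, 0, 3.01 and 7.63 CPM in M1, M2, M5 and M6 against 51.7, 67.9, 43.2 and 59.3. Of 15 cytotoxic genes, 10 were lower, and *Trdc*, the constant region of the gamma delta T cell receptor, was lower too, all against the *Foxp3*- CD3+ cells of the label. Against *Foxp3*- CD4 cells of the NKT label, *Foxp3*+ CD4 cells had 116 genes higher (2.08%) and 76 lower (1.36%). The identity list was at 6 of 13 higher, and *Nrp1* was called lower. Among the 6, *Lrrc32* passed the minimum of 20 CPM only through the *Foxp3*+ CD4 cells. Between these CD4 cells only 2 of 14 cytotoxic genes tested were lower, *Klrd1* and *Klrk1*, and *Prf1* was called higher with 61.8 against 30.1 CPM. *Zbtb16* had 6 and 5 UMIs there, *Klra1* 0 and 7 and *Klra5* 4 and 0, all too low for a call, and *Trdc*, with 42.7 against 7.07 CPM, was not called. Without cells over 20000 UMIs, 164 genes were higher (2.93%) and 137 lower (2.45%) in all *Foxp3*+ cells labelled NKT, and 9 of 13 identity genes were higher. Among the 9, *Lrrc32* passed the minimum only through the *Foxp3*+ set.

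In T cell EFF, 98 of 5729 genes were higher in *Foxp3*+ cells (1.71%) and 30 lower (0.524%), with 6 of 11 identity genes higher. *Itgae* had 14.7, 56.4, 37.7 and 88.3 CPM in M1, M2, M5 and M6 against 0.425, 1.43, 3.42 and 2.41, 27.4-fold higher (21.7 to 34.9). It passed the minimum of 20 CPM only through the *Foxp3*+ set, as did *Izumo1r* among the 6. Between the CD4 cells of this label *Itgae* had 105 CPM against 7.37, with 4 UMIs in the *Foxp3*- cells (log2 ratio 3.66). *Maf*, a transcription factor of IL-10-producing and effector Treg cells, had 178 CPM against 19.1, and between the CD4 cells of this label it had 309 against 129 and was not called. In the label as a whole *Maf* passed the minimum only through the *Foxp3*+ set. *Pdcd1* was called lower, with 449.6, 323, 293 and 238.5 CPM against 569, 781, 573 and 523. Macrophage and monocyte genes moved with these, at 2598 against 916 CPM summed (libraries 1108 to 3369 and 759 to 1090.2), with 4 of 10 called higher (*Cd14*, *Cd68*, *Lyz2* and *Tyrobp*), and their part in the calls was not tested. Without cells over 20000 UMIs, 176 of 5557 genes were higher (3.17%) and 96 lower (1.73%). In this setting 9 of 12 identity genes were higher, *Ctla4*, *Tnfrsf18* and *Lrrc32* now among them. Of the 9, *Itgae*, *Izumo1r* and *Lrrc32* passed the minimum only through the *Foxp3*+ set. *Foxp3*+ CD4 cells against *Foxp3*- CD4 cells of this label (69 and 71 cells) had 228 genes higher (4.05%) and 122 lower (2.17%), with 6 of 12 identity genes higher. Of these 6, *Entpd1*, *Itgae* and *Lrrc32* passed the minimum only through the *Foxp3*+ set. M1 and M2 held only 7 and 6 of these *Foxp3*- CD4 cells, so the signs in these libraries rest on few cells. Under median-of-ratios scaling the higher share of the calls of all *Foxp3*+ cells went from 76.6% to 66.4%.

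In T cell MEM, 52 of 5660 genes were higher in *Foxp3*+ cells (0.919%) and 23 lower (0.406%). The identity genes called higher were *Ikzf2*, *Il2ra* and *Itgae*, of 12 tested. *Itgae* passed the minimum of 20 CPM only through the *Foxp3*+ set. *Ikzf2* had 688.5, 701, 838 and 1216 CPM in M1, M2, M5 and M6 against 248, 285, 312 and 384, 3.02-fold higher (2.86 to 3.19), with no overlap. *Pdcd1* was called lower, at 254 CPM against 543.5. It was not called without cells over 20000 UMIs, at 248 against 590.4 and higher in M1, nor between the CD4 cells of this label, at 171 against 263. Macrophage and monocyte genes summed to 2829 CPM against 1349 (libraries 397 to 3342.5 and 955 to 1651), none of 10 was called, and their part in the calls was not tested. M1 and M2 held only 6 and 9 *Foxp3*+ cells of this label. Leaving out M1 raised the number of calls from 75 to 133, and leaving out M5 raised it to 115. A call then needs the same sign in fewer libraries, so such counts can rise for that reason alone. Without cells over 20000 UMIs 101 of 5515 genes were higher (1.83%) and 108 lower (1.96%), and 8 of 13 identity genes were higher. Among the 8, *Itgae* passed the minimum only through the *Foxp3*+ set. Between the CD4 cells of this label (66 and 137), 31 genes were higher (0.565%) and 112 lower (2.04%), with 5 of 13 identity genes higher. Under median-of-ratios scaling the higher share of the calls of all *Foxp3*+ cells went from 69.3% to 54.2%.

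Between the labels, *Foxp3*+ cells differed in lineage transcripts, proliferation and depth. Since the labels came from whole expression profiles, these differences are a description. NKT against T cell EFF gave 170 of 5732 genes higher (2.97%) and 220 lower (3.84%), with 9 of 13 identity genes higher and 8 of 15 cytotoxic genes lower. Among the 9, *Nt5e* passed the minimum of 20 CPM only through the NKT set. *Ikzf2* had 1365, 1845, 1955 and 1836 CPM in M1, M2, M5 and M6 in NKT and 739.5, 931, 658 and 808 in T cell EFF. *Tnfrsf18* had 1041 to 1479 CPM in NKT and 425 to 662 in T cell EFF, without overlap. *Itgb8* had the highest ratio, 4.64-fold (3.73 to 5.77). *Prf1*, at 81.3 CPM against 488, was lower in each library. Macrophage and monocyte genes summed to 557 CPM in NKT and 2598 in T cell EFF (libraries 463 to 821 and 1108 to 3369), and their part was not tested. Under median-of-ratios scaling the higher share of the calls went from 43.6% to 32.4%.

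Fewer identity genes were called between NKT and T cell EFF when deep cells were left out. Without cells over 20000 UMIs, *Itgae* and *Nt5e* alone of the 13 identity genes were called, and 53 of 5612 genes were higher (0.944%) and 79 lower (1.41%). *Tnfrsf4* then had 1400.2 CPM in NKT and 1376 in T cell EFF, *Ctla4* 1415 and 978, *Ikzf2* 1933 and 1277, and *Tnfrsf18* 1157 and 904. Of 17 proliferation genes, 7 were lower in NKT, and so were 7 of 16 cytotoxic genes. In *Foxp3*+ CD4 cells of both labels 3 identity genes were called, *Itgae*, *Lrrc32* and *Nt5e*, with 127 of 5690 genes higher (2.23%) and 148 lower (2.6%) in NKT. Among the 3, *Nt5e* passed the minimum of 20 CPM only through the NKT set. None of the 14 cytotoxic genes tested was called in these CD4 cells.

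T cell MEM and T cell EFF differed in the cell cycle. Of 5764 genes, 17 were higher in T cell MEM (0.295%) and 119 lower (2.06%), and 15 of 17 proliferation genes were lower with a median log2 ratio of -2.94. *Mki67*, a marker of cycling cells, had 0, 12.7, 26.7 and 24.2 CPM in M1, M2, M5 and M6 in T cell MEM, against 172, 187, 203 and 195 in T cell EFF. *Birc5*, a survival and mitosis gene, had 6.69 against 148.5 pooled. *Mki67* was lower in T cell MEM in each library, but M1 and M2 held only 6 and 9 *Foxp3*+ cells of that label. These cells had 37765 and 78489 UMIs in all, so the signs in M1 and M2 rest on few counts. The same direction was seen without cells over 20000 UMIs, where 14 of 16 proliferation genes were lower. In that setting 113 of 5543 genes were lower (2.04%) and 27 higher (0.487%). In *Foxp3*+ CD4 cells 15 of 17 proliferation genes were lower, among 340 of 5658 lower (6.01%) and 41 higher (0.725%). M1 and M2 held 14 and 23 *Foxp3*+ CD4 cells over all labels, so a level of 0 there can set a lower sign. After thinning, *Mki67* was detected in 20.3% of *Foxp3*+ cells labelled T cell EFF, 3.61% of T cell MEM and 8.55% of NKT. *Slamf6*, a receptor of less differentiated T cells, was higher in T cell MEM with 136 CPM against 52.9.

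NKT against T cell MEM gave 37 of 5690 genes higher (0.65%) and 73 lower (1.28%). *Itgb8* had 57.3, 158, 101 and 112 CPM in M1, M2, M5 and M6 in NKT, against 26.5, 12.7, 25.4 and 27.9. *Ctla4*, *Tnfrsf4*, *Ikzf4*, *Izumo1r* and *Itgae* were the 5 of 13 identity genes called higher, and none of 13 was called without cells over 20000 UMIs, where 48 of 5511 genes were higher (0.871%) and 11 lower (0.2%). *Birc5*, *Mki67*, *Top2a* and *Tyms* were higher in NKT in both settings and in *Foxp3*+ CD4 cells. In *Foxp3*+ CD4 cells 69 genes were higher (1.24%) and 11 lower (0.198%), and none of 13 identity genes was called. Macrophage and monocyte genes summed to 557 CPM in NKT and 2829 in T cell MEM, and their part was not tested. Leaving out M1, with 6 *Foxp3*+ cells labelled T cell MEM, raised the number of calls from 110 to 207. Here too a call then needs the same sign in fewer libraries.

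**Figure D5:**
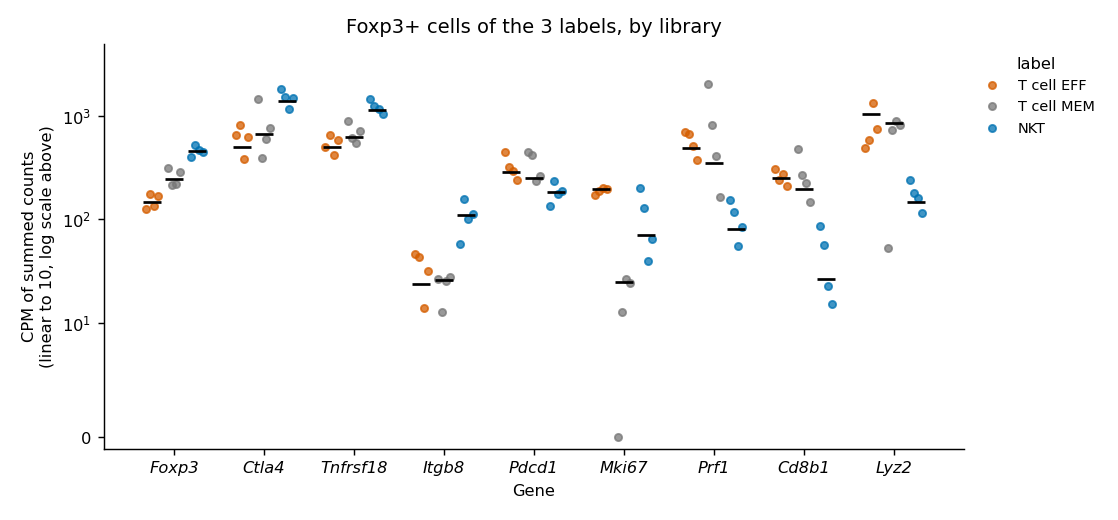
CPM of counts summed over the *Foxp3*+ cells of each label (y axis, linear to 10 and log scale above) for 9 genes (x axis). Points are the 4 libraries and lines the pooled levels. *Tnfrsf18* and *Ctla4* are highest in NKT, with pooled levels of 1134 and 1392 CPM, *Mki67* has 198 CPM in T cell EFF against 24.9 in T cell MEM, and the pooled levels of *Lyz2*, *Prf1* and *Cd8b1* are lowest in NKT.

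A single *Foxp3*+ cell set the level of hemoglobin. It lay in library M5 under the NKT label and held 4381 of the 4388 *Hbb-bs* UMIs of all *Foxp3*+ cells, within a total of 14413 UMIs, and 984 *Hba-a1* UMIs. *Hbb-bs* was found in 7 *Foxp3*+ cells in all.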

How the data were processed

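Immune cells of CT26 tumors, enriched for CD45, were profiled by single-cell mRNA-seq. The authors demultiplexed and counted reads with Cell Ranger 3.0.2 on mm10 (GRCm38), kept cells above 500 UMIs and annotated each cell by its highest correlation with ImmGen profiles. The deposited values are UMI counts without normalization, beside a library name and a cell type label for every cell. Library names match no sample label, so the planned treatment comparison was not run. The cells and gene lists were chosen with earlier results of these data known.

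Counts were summed over cells and scaled to CPM with pandas 2.3.3 and numpy 2.4.6 under Python 3.11.15, with intervals from scipy 1.17.1. A pseudocount of 1 CPM, a minimum mean of 20 CPM and a 2-fold limit with the same sign in each library that had cells of both sets were used. No test was run and no doublet caller was used. Shares were counted after thinning to 2000 UMIs. Genes named are those of 5 kinds of list (Treg, antibody target, chemokine receptor, lineage, cytokine), the 10 highest and lowest called against *Foxp3*- CD4 cells and 5 in each label comparison. Other list members were named after their values were seen. Of the list genes, 274 are in the table and 1 is absent. In simulated data for *Foxp3*+ against *Foxp3*- CD4 cells (5679 genes tested, among them 184 of 200 changed genes), calls recovered 36% of 50 genes changed 2-fold, 88% at 3-fold and 94% at 8-fold, and 0 of 5495 unchanged genes were called. Simulated cells of a set shared a single profile, without differences between libraries or between cells. The 0 calls therefore give no rate of false calls in the real data. Positions are from GENCODE M21. Some results are not reported here.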

Additional observations from a re-analysis of the deposited data

Results flagged for a closer look

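*Cxcr4*, the receptor for CXCL12, differed in sign between 2 labels. Its log2 ratio of *Foxp3*+ over *Foxp3*- cells was 1.63 in T cell EFF, where it was higher in each of the 4 libraries (27.0, 43.6, 61.9 and 79.8 CPM in M1, M2, M5 and M6 against 9.02, 10.0, 26.5 and 36.4), and -0.0077 in NKT, where it was lower in each library (66.8, 113, 191 and 153 CPM against 114, 162, 195 and 164). Both ratios are pooled and depend on how the libraries are mixed in each set, so they are not the ratios within a library. M5 and M6, where *Cxcr4* was highest in both sets, held 132 and 102 of 279 *Foxp3*+ cells labelled T cell EFF. Of the 3333 *Foxp3*- cells of this label they held 983 and 715. In NKT the sets lay close in M5 and M6. The difference between the labels was not tested. The *Foxp3*- cells labelled T cell EFF are mostly CD8 cells. Between the CD4 cells of this label *Cxcr4* had 82.0 CPM against 46.1, a log2 ratio of 0.82, was lower in M1 and M2 and was not called.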

How the results depend on the processing

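No paired analysis was possible for the treatment groups because the libraries match no sample label, and the planned edgeR and DESeq2 fits were not run. *Foxp3*+ and *Foxp3*- cells were compared within each library by sign, with no paired test, since libraries without a group were not taken as replicates. Shares depend on depth, and *Foxp3*- sets can hold Treg cells whose *Foxp3* was not captured. Leaving out cells over 20000 UMIs, weighting labels equally and taking CD4 cells of 1 label were chosen after seeing the data. Causes were not tested.

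Of counts over genes and shares, 133 stayed within their limit and 62 moved, and of other values 2103 stayed, 174 moved and 1 reversed, *Xcl1* in *Foxp3*+ CD4 cells, at -0.69 without cells over 20000 UMIs. Against *Foxp3*- CD4 cells, the 145 higher genes became 95 with a pseudocount of 10 CPM, 636 with no filter, 87 with the mean of single-cell CPM and 91 without cells over 20000 UMIs, and the 47 lower genes became 31 with the pseudocount, 94 with no filter and 76 in *Foxp3*+ CD4 cells. In *Foxp3*+ CD4 cells, 104 higher became 65 with the pseudocount and 286 with no filter, and 76 lower became 50, 166 and, after thinning, 119.

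In T cell EFF, 128 calls became 302 for *Foxp3*+ CD4 cells, 350 for these against CD4 cells of the label, 404 with no filter, 244 with the single-cell mean, 256 after thinning and 272 without deep cells. In T cell MEM, 75 became 254, 143, 238, 180, 192 and 209 in the same order, and 47 with the pseudocount. In NKT, 301 became 192 against CD4 cells of the label, 200 with the pseudocount and 754 with no filter. Between NKT and T cell EFF, 390 became 1008 with no filter, 220 with the single-cell mean and 132 without deep cells. Between NKT and T cell MEM, 110 became 243, 66 and 59 in these settings and 194 with the median of the libraries. Between T cell MEM and T cell EFF, 136 became 381 for *Foxp3*+ CD4 cells, 466 with no filter and 261 with the median of the libraries.

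The share of Foxp3-positive cells, 7.05%, became 4.49% thinned to 1000 UMIs, 9.24% to 4000, 13.5% without thinning and 2.77% with 2 or more *Foxp3* UMIs. At 1000, 4000 and no thinning, *Il2ra* was detected in 26.7%, 53.6% and 70.3% of *Foxp3*+ cells, *Ctla4* in 56.7%, 87.0% and 96.5%, *Ikzf2* in 68.4%, 92.6% and 97.6%, and *Tnfrsf4* in 57.1%, 84.2% and 93.7%. Leaving out each library in turn gave 149 to 180 higher and 45 to 52 lower genes against *Foxp3*- CD4 cells, 115 to 156 and 81 to 98 in *Foxp3*+ CD4 cells, 127 to 174 calls in T cell EFF, 78 to 133 in T cell MEM, 320 to 382 in NKT, 356 to 498 between NKT and T cell EFF, 129 to 207 between NKT and T cell MEM, 152 to 201 between T cell MEM and T cell EFF, and a share of 5.61% to 8.26%. Leaving out a library also loosens the rule of the same sign in each library, so counts of called genes can rise for that reason alone. With each library left out in turn, *Il2ra* was detected in 36.1% to 41.3% of *Foxp3*+ cells, *Ctla4* in 73.7% to 76.6%, *Ikzf2* in 82.4% to 86.1% and *Tnfrsf4* in 71.5% to 75.6%.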

Other observations

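The share of *Foxp3*+ cells among CD3+ cells was lower in M1 and M2 than in M5 and M6, and the 4 libraries match no treatment group. After thinning to 2000 UMIs it was 2.15%, 3.10%, 9.43% and 10.9% for M1, M2, M5 and M6, with overlapping intervals between M1 and M2 and between M5 and M6, and without thinning 4.56%, 5.13%, 19.1% and 20.2%. The CD3+ cells of these libraries had median depths of 8363, 7609, 8916 and 7607 UMIs. No cause was tested, and the values are not a comparison between treatments.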
